A study of Rattus norvegicus with 15 samples.

Results

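The cadherin and protocadherin genes are 33 genes of cell-surface adhesion proteins, followed here in RNA of the ventral tegmental area, the midbrain region of the mesolimbic dopamine neurons, from rats given ethanol or water. They were taken by name: every gene whose symbol in the array annotation begins with Pcdh, or with Cdh and a digit, apart from Cdh5, and that has a probe set carrying that symbol alone. The rule gave 46 probe sets, and each gene was represented by its probe set with the highest mean over all 15 arrays. The 33 genes, 7 of them of the Pcdhb family and 26 not, stand among 14217 genes named in the same way on the array. Expression was measured on Affymetrix rat arrays in 7 rats given ethanol and 8 age-matched rats given water, with 1 array per animal. Per the series title these were alcohol-preferring (P) rats after loss-of-control drinking. The design text instead concerns selectively bred lines of opposite intake, and the labels separate the rats by ethanol and water alone. The sources used here state no strain per animal, age, sex or time from the last drink, and ethanol rat 3 was not analysed here. RNA came from the whole region, with no sorting of cell types.

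Cadherins bind the same or similar cadherins on a neighbouring cell through calcium-dependent extracellular repeats, and the classical ones are tied to actin through catenins. The clustered protocadherins lie in 3 arrays of variable exons, Pcdha, Pcdhb and Pcdhg, on 1 chromosome. Each neuron uses a few variable promoters of the cluster, a choice that involves the DNA-binding protein CTCF and cohesin, and the resulting mixture lets neurites tell their own branches from those of other cells. Each Pcdhb gene is a single exon with its own promoter, and its protein lacks the shared cytoplasmic tail of the Pcdha and Pcdhg proteins. Non-clustered protocadherins, among them the delta groups, act in axon growth, in synapse shape and, through the WAVE complex, on actin.

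The promoters of the Pcdhb genes are shown because these genes share a short element there. Windows from 250 bases before to 50 bases after each annotated start, from RefSeq on assembly GRCr8, were listed for 21 of the 33 genes and for 5 of the 7 Pcdhb genes. The run of 10 bases present in most of the 19 Pcdhb windows, whether measured here or not, was searched for on both strands and was GGTGGCGCTG, found in 15 of them (78.9%). It was present in 74 of all 33469 windows (0.221%) and in 59 of the 33434 outside the 3 clustered families (0.176%). None of the 15 Pcdhg windows, the 11 of non-clustered protocadherins or the 14 of cadherins held it. It contains CGCT, the core of the conserved element described in clustered protocadherin promoters. CGCT alone stood in 60.9% of all windows and 84.2% of the Pcdhb windows. It also stood in 73.3% of the Pcdhg windows, 81.8% of those of non-clustered protocadherins and 71.4% of those of cadherins. CGCT is thus not particular to Pcdhb. Because the run was chosen from these windows, its share among them is a description. Its length of 10 was set for the search, so shared sequence can extend beyond it. The bases cag follow the capitals in all 5 stretches below. The 5 stretches below read 5′ to 3′ along the gene, each from the plus strand of chromosome 18 of GRCr8, with the run in capitals.
Pcdhb9, chr18:29379233-29379292: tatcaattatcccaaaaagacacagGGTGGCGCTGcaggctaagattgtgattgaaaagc
Pcdhb12, chr18:29413633-29413692: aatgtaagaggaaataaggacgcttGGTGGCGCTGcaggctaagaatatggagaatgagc
Pcdhb19, chr18:29478749-29478808: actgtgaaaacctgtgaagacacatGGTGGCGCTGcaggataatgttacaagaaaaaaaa
Pcdhb21, chr18:29492134-29492193: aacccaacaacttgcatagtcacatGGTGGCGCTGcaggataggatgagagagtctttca
Pcdhb6, chr18:29320141-29320196: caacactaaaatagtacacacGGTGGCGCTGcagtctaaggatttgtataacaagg

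The run began 52 bases before the annotated start in Pcdhb9, 60 in Pcdhb21, 74 in Pcdhb19, 98 in Pcdhb12 and 229 in Pcdhb6. All 5 windows held it, whether the gene's level differed between the groups (Pcdhb9) or was below the filter on dim probe sets (Pcdhb6 and Pcdhb21). In chromosome order these are the 6th, 9th, 12th, 19th and 21st of 22 Pcdhb genes in RefSeq, and the other measured genes, Pcdhb17 and Pcdhb22, are the 18th and the 22nd.

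**Figure D1:**
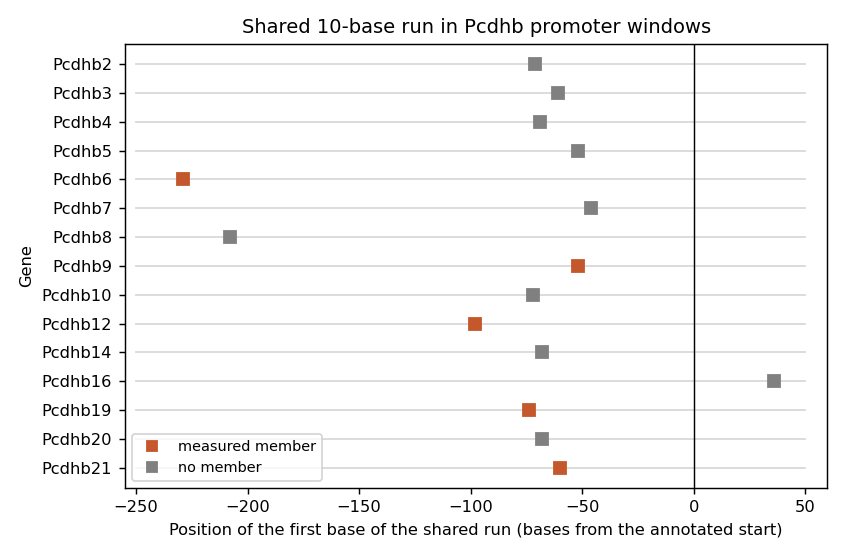
Position of the shared run of 10 bases in the 15 Pcdhb promoter windows that hold it. The x axis gives the first base of the run relative to the annotated start at 0, each grey line is 1 window from 250 bases before to 50 after the start, and orange squares are genes measured on the array. The run begins 46 to 98 bases before the start in 12 windows, farther upstream in Pcdhb6 and Pcdhb8, and after the start in Pcdhb16.

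All values are the authors' log2 expression values made with RMA, and a difference is ethanol minus water on that scale. Levels of different probe sets are not compared, since each has its own probes. The summed marker levels given further on add probe sets, so the brightest weigh most, and are compared only between rats. Over the array, probe sets whose mean reached the 40th percentile (log2 6.94) were kept, 18625 in all, and 173 of them (0.929%) were called at an adjusted p below 0.05 by limma with Benjamini-Hochberg adjustment. Of these, 72 (0.387%) were higher in ethanol rats. Without ethanol rat 7 the count was 100, and it was 102 without ethanol rat 8. Th, which encodes tyrosine hydroxylase and marks the region's dopamine neurons, was at 14.94 ± 0.22 (SD, n = 7) with ethanol and 14.80 ± 0.26 (SD, n = 8) with water. The difference between 3′ and 5′ probe sets of the control transcripts, a sign of RNA integrity, did not pass an exact permutation test (p = 0.739 for Gapdh and 0.362 for hexokinase, two-sided).

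Of the 33 genes, 24 passed the filter, and 1 of those 24 was called, Pcdhb9, which was higher in ethanol rats. With no filter, 2 of the 33 were called, Pcdhb9 and Cdh1, against 0.448% of all 31042 probe sets and 90 of the 14217 genes. The same genes were those whose ethanol and water values did not overlap, against 0.409% of all probe sets and 89 of the 14217 genes. At an unadjusted p below 0.05, 7 of the 33 passed with no filter, against 9.94% of all 31042 probe sets and 1528 of the 14217 genes. Pcdhb9, Pcdhb12, Pcdhb19, Cdh1, Cdh2 and Cdh23 were the higher ones and Pcdh20 was the lower one. Of the 24 above the filter 6 passed (12.1% of the 18625), but Pcdhb12 and Cdh23 reached the filter only through the ethanol rats, so nothing is read from that count. The difference was above 0 for 22 of the 33 genes and below 0 for 11, with a median of 0.027 log2 units. Over all 14217 genes taken in the same way it was above 0 for 7351, with a median of 0.0032. The Pcdhb median was 0.074, with 6 of 7 above 0, and that of the other 26 genes was 0.021, with 16 above 0. Differences close to 0 have no settled sign: those of Cdh6, Cdh15, Cdh17 and Cdh22 turned under other scalings of the arrays. Of the 6 Pcdhb genes above 0, Pcdhb17 turned in 3 of 15 fits without 1 rat, and Pcdhb6 and Pcdhb22 were below the filter. In RNA from tissue, fewer cells of a type and less RNA per cell cannot be told apart.

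**Figure D2:**
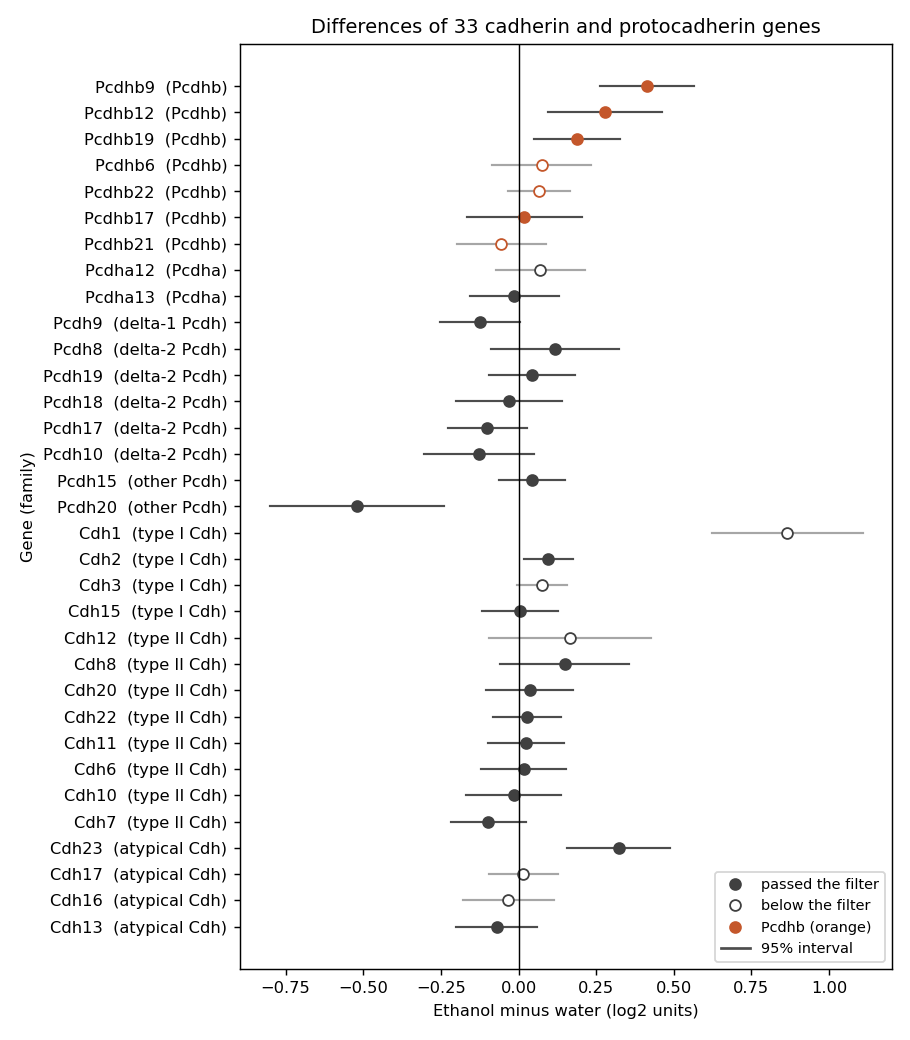
Difference between ethanol and water rats for the 33 genes, ordered by family. Points are ethanol minus water in log2 units from limma, bars are 95% intervals that are not adjusted for the number of genes, filled points passed the filter and open points did not, and Pcdhb genes are orange. Pcdhb9 (0.41) and Cdh1 (0.87) lie farthest to the right with Cdh23 (0.32), Pcdh20 (-0.52) lies farthest to the left, and the signs of Cdh6, Cdh15, Cdh17 and Cdh22, all near 0, change with the scaling.

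Pcdhb9 was the member of the family called in the comparison. Its values ran from 9.02 through a median of 9.11 to 9.27 in ethanol rats and from 8.40 through 8.73 to 8.96 in water rats. Every ethanol rat lay above every water rat. The means were 9.13 ± 0.08 (SD, n = 7) and 8.71 ± 0.18 (SD, n = 8), a 1.33-fold difference (log2 0.41, SE 0.071, 95% interval 0.26 to 0.56, limma adjusted p = 0.00835). The water rats were spread more widely than the ethanol rats, with water 7 (8.53) and water 8 (8.40) at the lower end. Water 7 (14.49) and water 8 (14.44) were also lowest in Th. Foxa2, another dopamine neuron marker, was highest among water rats in water 7 (10.95). Whether Pcdhb9 follows any marker from rat to rat was not tested. Leaving out each rat in turn gave differences of 0.37 to 0.45, and the gene was called in 15 of 15 such fits, with adjusted p from 0.00448 to 0.0238. With the animal number as a block, over rats whose number occurs in both groups, it was not called (log2 0.43, limma adjusted p = 0.0534). Its promoter is the first of those printed above.

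Pcdhb12 and Pcdhb19 leaned the same way without passing the threshold. Pcdhb12 ran from 6.85 through a median of 7.20 to 7.43 in ethanol rats and from 6.62 through 7.01 to 7.05 in water rats. Ethanol rat 6 was low, at 6.85, and the other 6 ethanol rats lay above all 8 water rats. The difference was 0.28 (SE 0.087, unadjusted p = 0.0053, limma adjusted p = 0.178). The water mean, 6.92, lies below the filter value and the ethanol mean, 7.1998, above it, and with no filter the limma adjusted p was 0.240. A second, dimmer probe set of Pcdhb12, below the filter, differed by 0.21 (SE 0.087, unadjusted p = 0.0312 in limma), and 5 of 7 ethanol rats were above all water rats. Pcdhb19 ran from 8.80 through 9.01 to 9.15 in ethanol rats and from 8.60 through 8.82 to 9.04 in water rats. Here 3 of 7 ethanol rats lay above all water rats, and ethanol rat 5, at 8.80, was below the water mean (log2 0.19, SE 0.066, limma adjusted p = 0.238).

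Pcdhb17, the fourth of the family above the filter, had nearly equal means. It was at 7.002 ± 0.076 (SD, n = 7) with ethanol and 6.983 ± 0.240 (SD, n = 8) with water (log2 0.019, SE 0.088, limma adjusted p = 0.949), and its 95% interval ran from -0.17 to 0.20. The water rats spanned 6.55 to 7.29 and enclosed all ethanol rats. The remaining 3 genes were dim, with means over all rats of 5.19 for Pcdhb6, 4.73 for Pcdhb21 and 4.98 for Pcdhb22. Their differences were 0.074, -0.056 and 0.066, with adjusted p without the filter from 0.679 to 0.823 (limma), and all 3 overlapped between the groups. Near the lower end of the scale RMA values compress differences, so these 3 say little about either direction. Pcdhb coding sequences resemble each other, and whether a probe set also binds a related transcript was not tested.

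**Figure D3:**
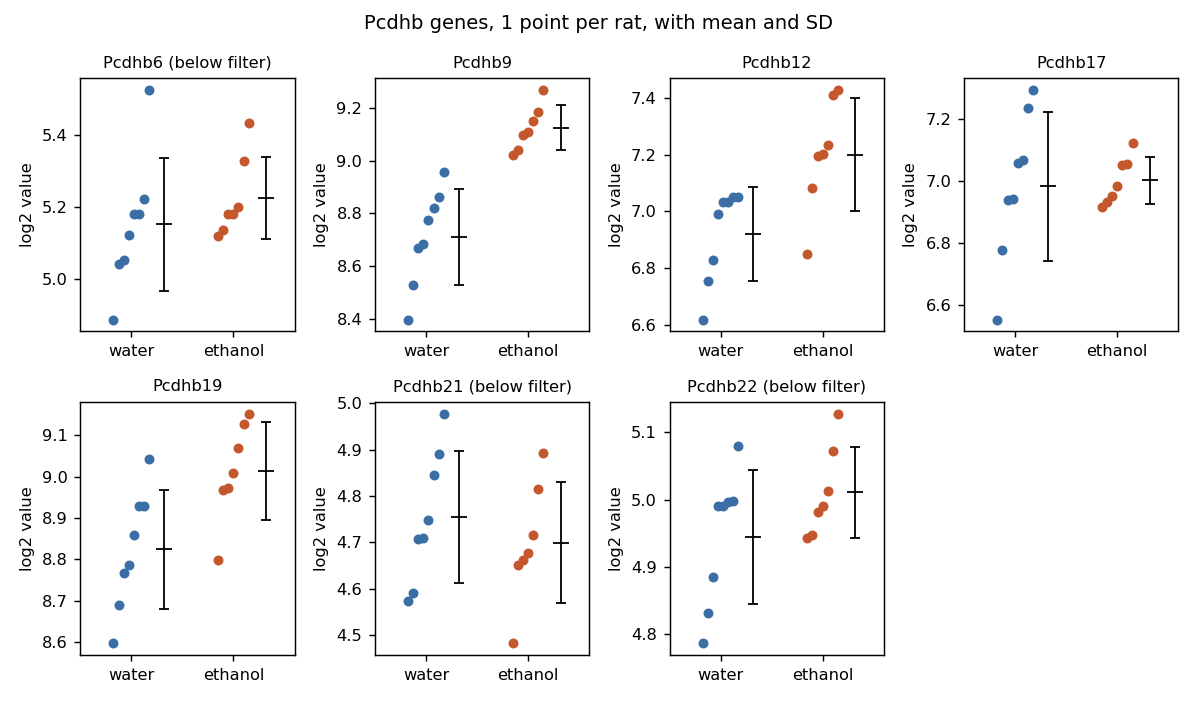
Log2 value of each of the 7 Pcdhb genes in every rat, sorted within each group, with 1 panel per gene and its own y axis. Blue points are the 8 water rats, orange points the 7 ethanol rats, and the bar beside each group is its mean with SD. The groups are apart in Pcdhb9, from 8.40 to 8.96 in water and 9.02 to 9.27 in ethanol, and overlap in the other 6 genes.

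In no ethanol rat did all 7 Pcdhb genes lie above the water mean. Between 4 and 6 of the 7 Pcdhb genes were above the water mean in each ethanol rat, and the average deviation over the 7 genes was 0.090 to 0.22 log2 units. These averages include Pcdhb9 and Pcdhb12, which had the largest differences (0.41 and 0.28), and the dim genes below the filter. They do not show a shift of the whole family. Water rats 1, 2, 3 and 6 also had 6 of 7 genes above that mean. Water rats 4 and 5 had 2, water rat 7 had 1 and water rat 8 had 0, with average deviations down to -0.15. Water rats 1 and 3, which averaged 0.16 and 0.12, lay within the range of the ethanol rats, and the other water rats lay below it.

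**Figure D4:**
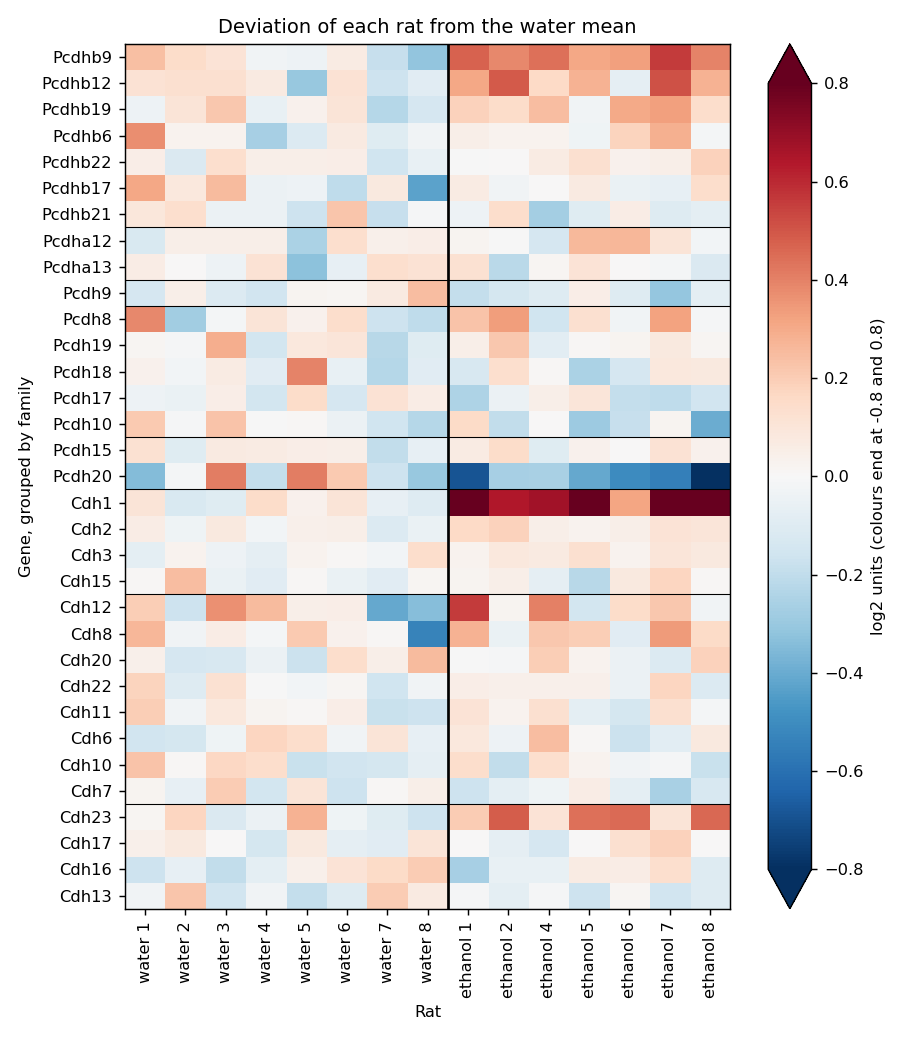
Deviation of each rat from the water mean for the 33 genes, in log2 units, with red above and blue below that mean and colours ending at -0.8 and 0.8. Columns are the 8 water rats and then the 7 ethanol rats, rows are genes grouped by family. The rows of Pcdhb9 and Cdh1 are red in all 7 ethanol rats, that of Cdh23 is red in all 7 to differing depth, and that of Pcdh20 is blue in all 7.

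The neighbouring clusters gave no call. Pcdha13, which carries a variable exon of the first cluster, was at 8.25 ± 0.12 (SD, n = 7) with ethanol and 8.27 ± 0.15 (SD, n = 8) with water (log2 -0.013, limma adjusted p = 0.953). Pcdha12, below the filter, differed by 0.070 (SE 0.068). No Pcdhg gene has a probe set of its own under the rule, but 4 probe sets carry the symbols of many Pcdha or Pcdhg genes at once. Where in these transcripts they lie was not examined. The 2 for Pcdha differed by -0.027 and -0.020. The brighter Pcdhg one was at 12.24 ± 0.03 (SD, n = 7) with ethanol and 12.14 ± 0.08 (SD, n = 8) with water. It differed by log2 0.095 (SE 0.037, limma unadjusted p = 0.0184, adjusted p = 0.290), with 7 of 7 ethanol rats above the water mean. The dimmer Pcdhg one differed by 0.068. Of the 10 measured genes that flank the clusters in RefSeq, 0 were called by limma, and 2 passed an unadjusted p below 0.05. These were Fchsd1 (log2 0.10, adjusted p = 0.397) and Hars1, a histidine tRNA synthetase (log2 -0.15, adjusted p = 0.392).

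Among the non-clustered protocadherins, the largest difference was that of Pcdh20, which was lower in ethanol rats without passing the threshold. Its values ran from 9.89 through a median of 10.35 to 10.60 in ethanol rats and from 10.51 through 10.77 to 11.27 in water rats. All 7 ethanol rats were below the water mean and 5 were below every water rat. The means were 10.34 ± 0.25 (SD, n = 7) and 10.86 ± 0.31 (SD, n = 8), so ethanol rats stood at 0.697 of the water level (log2 -0.52, SE 0.13, 95% interval -0.80 to -0.24, limma adjusted p = 0.0873). Its other probe set gave -0.55 (SE 0.13, limma adjusted p = 0.0718), with 6 of 7 ethanol rats below every water rat. With limma's array weights the first probe set passed, at -0.55 and an adjusted p of 0.0490. No other alternative called it. Leaving out each rat in turn gave 0 calls in 15 fits, with limma adjusted p from 0.0611 to 0.175. Water rats 3 and 5 were highest, at 11.27 and 11.26, and ethanol rat 8 lowest.

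None of the measured delta protocadherins was called. Pcdh9, the measured member of the delta-1 group, was at 12.59 ± 0.11 (SD, n = 7) with ethanol and 12.71 ± 0.13 (SD, n = 8) with water (log2 -0.12, SE 0.061, limma adjusted p = 0.433). Its dimmer probe set gave -0.25 (SE 0.085, limma adjusted p = 0.223), with 5 of 7 ethanol rats below every water rat. All 5 measured delta-2 genes passed the filter, and their differences ran from -0.13 in Pcdh10, which binds the WAVE complex, to 0.12 in Pcdh8, which neuronal activity induces. Pcdh17 differed by -0.10 (limma adjusted p = 0.535), and its other probe sets by -0.12 and -0.15, the last at an unadjusted p of 0.0142 and an adjusted p of 0.265 in limma. Pcdh18, at -0.031, and Pcdh19, the gene of an epilepsy that affects mainly females, at 0.043, were close to 0. Pcdh15, which forms the lower part of the tip link of hair cells, was at 8.47 ± 0.08 (SD, n = 7) with ethanol and 8.43 ± 0.11 (SD, n = 8) with water.

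Cdh1, the E-cadherin of epithelial junctions, had the largest measured log2 difference of the 33 genes and was dim. With a mean of 5.75 over all rats it stayed below the filter, and so it has no adjusted p in the main comparison. Ethanol rats ran from 5.67 through a median of 6.30 to 6.68 and water rats from 5.23 through 5.33 to 5.50. Every ethanol rat was above every water rat, with ethanol rat 6 nearest to them. The means were 6.22 ± 0.35 (SD, n = 7) and 5.35 ± 0.11 (SD, n = 8), a 1.82-fold difference of the RMA values (log2 0.87, SE 0.12, 95% interval 0.62 to 1.11). The water mean lies below the 20th percentile of the array (5.50), where RMA compresses differences, so the fold is not an exact ratio of transcripts. Over all 31042 probe sets with no filter the limma adjusted p was 0.00167, and leaving out each rat in turn gave at most 0.00592. The gene's other probe set lay near the lower end of the scale, with a mean of 4.20, and differed by -0.048 (SE 0.040, unadjusted p = 0.248 in limma). The probe sets therefore disagree in sign, with the second at a level where little can be measured.

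None of the other classical cadherins was called. Cdh2, the N-cadherin of neuronal junctions and synapses, was at 11.80 ± 0.06 (SD, n = 7) with ethanol and 11.71 ± 0.07 (SD, n = 8) with water. All 7 ethanol rats were above the water mean and 4 above every water rat (log2 0.095, SE 0.037, limma adjusted p = 0.305). The other probe sets of Cdh2 gave 0.085 and 0.060. Cdh3, the P-cadherin, was below the filter and differed by 0.075, with 7 of 7 ethanol rats above the water mean. Cdh15, the M-cadherin of muscle, differed by 0.0050, with an interval of -0.12 to 0.13.

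Of the 8 type II cadherins measured, which divide neuronal groups by their combinations, 7 passed the filter and 0 were called by limma, with 0 also at an unadjusted p below 0.05. Their differences ran from -0.098 in Cdh7 to 0.17 in Cdh12, which was below the filter. Cdh8 differed by 0.15 (SE 0.099, limma adjusted p = 0.579), and ethanol rats ran from 8.55 through 8.83 to 8.98 against 8.11 through 8.66 to 8.90 in water rats. Cdh6, Cdh10, Cdh11, Cdh20 and Cdh22 lay between -0.015 and 0.035. Cdh22, a cadherin of pituitary and brain, was at 14.29 ± 0.09 (SD, n = 7) with ethanol and 14.26 ± 0.11 (SD, n = 8) with water, with an interval of the difference of -0.083 to 0.14. The dimmest probe set of Cdh11 differed by 0.14 (unadjusted p = 0.0273 in limma), while the brightest gave 0.024.

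The atypical cadherins were divided. Cdh23, which forms the upper part of the tip link whose lower part is Pcdh15, ran from 6.99 through a median of 7.33 to 7.37 in ethanol rats and from 6.72 through 6.85 to 7.16 in water rats. All 7 ethanol rats were above the water mean and 4 were above every water rat, while ethanol rats 1, 4 and 7 lay among the water rats. The difference was 0.32 (SE 0.079, 1.25-fold, limma adjusted p = 0.0727). The water mean, 6.89, lies below the filter value and the ethanol mean, 7.21, above it, so the gene was tested there through its higher group, and with no filter the limma adjusted p was 0.0987. Of 15 filtered fits that each left out 1 rat, 2 called it. These were without ethanol rat 4 (log2 0.36, limma adjusted p = 0.0465) and without water rat 5 (log2 0.36, limma adjusted p = 0.0286). In the others limma adjusted p reached up to 0.161. The gene entered all these fits through its higher group, so nothing is read from the 2 calls. Cdh13, the T-cadherin that is held to the membrane by a lipid anchor, differed by -0.071 (SE 0.062, limma adjusted p = 0.675), and its other probe sets were also below 0. Cdh16 and Cdh17, cadherins of kidney and of liver and intestine, were below the filter and differed by -0.032 and 0.015.

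**Figure D5:**
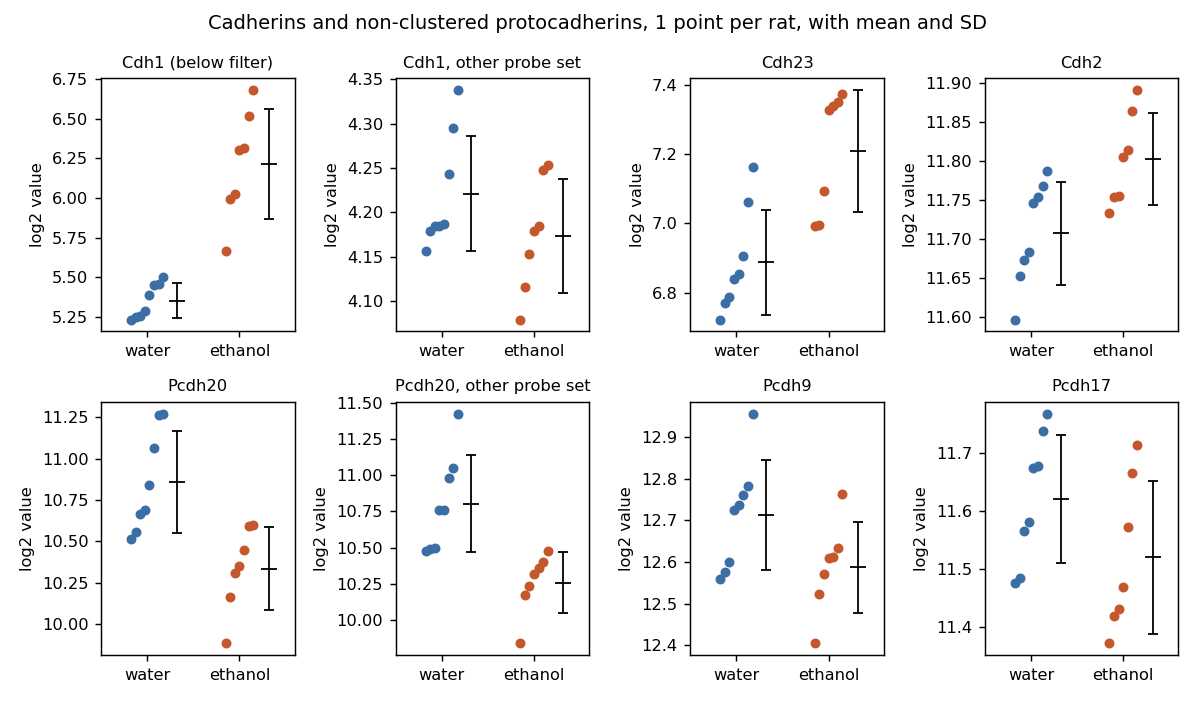
Log2 value in every rat for cadherins and non-clustered protocadherins, sorted within each group, with 1 panel per probe set and its own y axis. Blue points are the 8 water rats, orange points the 7 ethanol rats, and the bar beside each group is its mean with SD. The groups are apart in the brighter Cdh1 probe set and not in its other one, and both Pcdh20 probe sets are lower in ethanol rats.

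The proteins that cadherins and protocadherins work with were read from the same fit. Of 13 measured catenins and actin anchors, 12 passed the filter and 1 was called higher, Vcl, vinculin, which ties junctions under tension to actin. It was at 11.46 ± 0.07 (SD, n = 7) with ethanol and 11.20 ± 0.11 (SD, n = 8) with water (log2 0.26, SE 0.048, limma adjusted p = 0.0134), and 3 of 7 ethanol rats lay above every water rat. With the animal number as a block Vcl was not called (limma adjusted p = 0.0704). The list's median was 0.013. Of 17 other members of the cadherin superfamily, 11 passed the filter and 1 was called higher, Celsr2, a cadherin of planar cell polarity. It was at 8.74 ± 0.12 (SD, n = 7) with ethanol and 8.47 ± 0.08 (SD, n = 8) with water (log2 0.27, SE 0.052, limma adjusted p = 0.0163), with 6 of 7 ethanol rats above every water rat. With the animal number as a block Celsr2 was not called (limma adjusted p = 0.128). Its relative Celsr3 differed by 0.13 (limma adjusted p = 0.352), and the list's median was -0.0010.

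None of the regulators of the protocadherin clusters was called. Of 24 genes, 22 passed the filter and 0 were called by limma, with 2 at an unadjusted p below 0.05. These were Smc3, a cohesin subunit (log2 0.11, adjusted p = 0.328), and Dnmt1, the maintenance DNA methyltransferase (log2 0.090, adjusted p = 0.317). Ctcf differed by 0.0094 and Smchd1, a repressor of the clusters, by -0.027. Of 23 signalling partners, among them kinases, the WAVE complex and the proteases that cleave protocadherins, 22 passed the filter and 0 were called by limma. The single one at an unadjusted p below 0.05 was Cyfip1, a WAVE subunit (log2 0.10, adjusted p = 0.362), and the next was Rac1, the GTPase that activates WAVE (log2 -0.058, adjusted p = 0.475). Of 32 other synaptic adhesion genes, 31 passed the filter. At an unadjusted p below 0.05 in limma there were 4, with Cntn2 and Nlgn2 higher and Ncam2 and Nfasc lower. Only 1 gene of the list was called, and it was lower. This was Nfasc, the neurofascin of nodes and axon initial segments, which oligodendrocytes make too, at 11.11 ± 0.08 (SD, n = 7) with ethanol and 11.40 ± 0.07 (SD, n = 8) with water (log2 -0.29, SE 0.041, limma adjusted p = 0.00171). Every ethanol rat was below every water rat, and the list's median was 0.020.

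In the same rats, some markers of microglia, oligodendrocytes and their precursors were called. Those of meninges leaned lower without a call above the filter, and some neuron markers varied widely from rat to rat. The part of glia, meninges and neurons in the differences of Pcdhb9, Cdh1, Cdh23, Pcdh20, Vcl, Celsr2 and Nfasc was not tested. All 11 microglial markers were above 0 in their difference, with a median of 0.32, and 5 were called higher. The log2 of their summed level ran from 13.97 to 14.30 in ethanol rats and from 13.56 to 14.11 in water rats. Of 10 oligodendrocyte markers, 9 were below 0 and 3 were called lower, with summed levels of 17.41 to 17.63 and 17.55 to 17.86. All 5 markers of their precursors were below 0, 4 passed the filter and 1 was called lower, Olig1 (log2 -0.28, limma adjusted p = 0.0452), with summed levels of 13.37 to 13.59 and 13.42 to 13.94. The median of the 5 was -0.047, and Cspg4 (-6e-04), Pdgfra (-0.027) and Sox10 (-0.052) lay close to 0. All 7 meningeal and fibroblast markers were below 0, with a median of -0.52. Of these, 5 passed the filter and 0 were called by limma, with 2 at an unadjusted p below 0.05 and 2 called with no filter, and the summed levels were 10.41 to 11.48 and 10.72 to 11.74. None of the 6 choroid plexus and ependymal markers passed the filter. Of the 8 astrocyte markers and 9 endothelial and mural markers, 0 were called by limma, with 2 and 0 at an unadjusted p below 0.05. All 10 dopamine neuron markers were above 0 and 0 were called by limma, with 0 at an unadjusted p below 0.05, and the summed levels were 16.49 to 17.08 and 16.23 to 16.95. Of 10 general neuron markers 2 were above 0, and of 5 markers of GABA and glutamate neurons 3 were. Of either list 0 were called by limma, with 0 at an unadjusted p below 0.05. Rats of the same group differed widely in some of them. Nefl ran from 12.57 to 14.95 in ethanol rats and from 12.08 to 15.33 in water rats. Slc17a6 ran from 11.15 to 12.76 and from 9.98 to 13.31. The values are on a log scale without a true 0, so absence of a marker can be read only as a level near the lower end.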

How the data were processed

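The authors deposited log2 values. Per the submitters' processing notes RMA was used, in a version that the sources used here do not state. RMA gives all arrays 1 intensity distribution, so a shift common to most transcripts is removed, and it compresses dim differences. Per the labels' protocols, RNA was labelled after 2 rounds of amplification from 25 ng, and labelled copies are then shortened toward the 3′ end. The table held 31099 probe sets, 57 of them controls, on 15 arrays. A linear model with group as the sole term was fitted by limma 3.58.1 (R 4.3.3), with moderated two-sided tests, over the 18625 probe sets kept by the filter, with Benjamini-Hochberg adjustment over them; the fit was tested on simulated data. The median SE was 0.056, and the number of arrays limits the precision. Quality measures had an exact permutation test over 6435 divisions. Of the 46 probe sets, 44 had the same symbol and Entrez number in RefSeq. Genes named are those called, every Pcdhb gene, the smallest p-values of each family or list, the brightest and dimmest members and those whose probe sets disagree; the remaining members were named for completeness. The members and lists were chosen with earlier results of these data known. Alternatives were no filter, other percentiles, median centring, quantile normalization, a trended robust prior, array weights, other probe set choices, the animal number as a block and leaving out each rat. No batch of dissection or hybridization is stated in the sources used here.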

Additional observations from a re-analysis of the deposited data

Results flagged for a closer look

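In 4 of the 66 groups of values (33 genes in ethanol and in water rats), 1 rat stood apart from the rest of its group by Dixon's criterion, where chance gives about 1 in 20, or 3.3. All 4 were water rats. Water rat 2 was at 7.91 in Cdh15, with the nearest at 7.69. Water rat 8 was at 8.11 in Cdh8, with the nearest at 8.61. Water rat 5 was at 9.68 in Pcdh18, with the nearest at 9.34, and at 7.94 in Pcdha13, with the nearest at 8.20. None of these 4 genes was called in the comparison.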

How the results depend on the processing

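Among the 33 genes, 2 in place of 1 were called with no filter, with a filter at the 20th percentile (chosen after seeing the data), with array weights and with the mean of each gene's probe sets and no filter together, and the 26 genes outside Pcdhb then held 1. The added gene was Cdh1 (adjusted p = 0.00167, 0.00165 and, for the mean, 0.0081 at log2 0.41), and Pcdh20 with array weights (0.0490). Cdh1 reached the 20th percentile only through the ethanol rats, so that filter gives no support of its own. The labels call the water rats age-matched and do not say whether same-numbered rats were paired. Of the same-numbered pairs, 4 of 7 correlated above 0.1 in their deviations, and 2 of 7 rats correlated best with their own number. Such correlations cannot settle whether the rats were paired. With the replicate block, 59 probe sets were called over the array, 0 of the 33 genes and 0 of the Pcdhb genes; Pcdhb9 had 0.43 (adjusted p = 0.0534), Vcl 0.26 (0.0704) and Celsr2 0.26 (0.128). Leaving out 1 rat gave 100 to 180 calls over the array, 1 to 2 among the 33 genes and 0 to 1 outside Pcdhb. The higher counts among the 33 genes came without ethanol rat 4 or water rat 5, and the added gene was Cdh23. Cdh23 entered these fits through its higher group, so nothing is read from the higher counts. Signs turned only in small differences. They were Cdh15 with median centring (-0.011), quantile normalization (-0.0073) and the block (-0.0025), Cdh17 with centring (-8e-04), Cdh22 (-0.0016) and Cdh6 (-0.0013) with quantile normalization, and Cdh10 with the block (0.0084). Without 1 rat, ranges crossing 0 were -0.041 to 0.018 for Cdh10, -0.0011 to 0.052 for Cdh11, -0.023 to 0.043 for Cdh15, -0.060 to 0.0064 for Cdh16, -0.013 to 0.040 for Cdh17, -0.022 to 0.049 for Cdh6, -0.063 to 0.026 for Pcdh18, -0.060 to 0.020 for Pcdha13 and -0.043 to 0.063 for Pcdhb17. The cause was not tested, beyond the fewer probe sets or rats in a fit. Low signal limits the 9 genes below the filter.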
